A study of Mus musculus with 15 samples.

Results

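The mitochondrial genome of the mouse encodes 37 genes, and all 37 were found by symbol among the 37620 gene identifiers counted in 15 ileum libraries. They were 13 protein-coding genes, 2 ribosomal RNA (rRNA) genes and 22 transfer RNA (tRNA) genes, taken as every symbol that begins with mt-, whatever its counts. Together they took between 1.55 and 2.15% of a library's counts. The labels do not say whether each library came from a mouse of its own, so p-values measure the spread between these libraries, which may be in part technical. All mice, controls included, were given tamoxifen at 10 mg by gavage, 2 times a day, every second day over 5 days. Those labelled mutant were Rfx6f/f Vilin-CreERT2, that is, with loxP-flanked alleles of Rfx6, the gene of a transcription factor of hormone-producing cells, and an inducible recombinase driven by the villin promoter, which is active in intestinal epithelium and not in the muscle, blood and connective tissue that a piece of ileum also holds. There were 3 Rfx6f/f control and 4 mutant libraries of ileum taken 8 days after tamoxifen, and 4 control (2 Rfx6f/f and 2 Rfx6f/+) and 4 mutant libraries of ileum taken 3 months after it. Library totals ran from 26078462 to 54468586 counts.

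Mitochondria keep a small circular genome whose protein-coding genes all specify subunits of oxidative phosphorylation: complex I (mt-Nd genes), complex III (mt-Cytb), complex IV, or cytochrome c oxidase (mt-Co genes), and the ATP synthase (mt-Atp genes). The genome is copied into long transcripts that are cut at the tRNAs, so that genes sharing a transcript reach different levels through processing and stability. The other subunits, and the factors that transcribe, process and translate these RNAs, are nuclear genes. In the small intestine the absorptive epithelium and the muscle wall are both rich in mitochondria.

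The genes lie so close together that some share bases, which bears on how reads can be counted. The tRNAs with the highest mean counts are shown first, with the letters of the anticodon in capitals, to show how short the counted stretch of a tRNA gene is. They carry isoleucine (mt-Ti), methionine (mt-Tm) and tryptophan (mt-Tw), and mt-Tw has the anticodon that reads the codon TGA, a stop codon in the nuclear code.
mt-Ti: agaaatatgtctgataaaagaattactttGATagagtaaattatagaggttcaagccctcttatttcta
mt-Tm: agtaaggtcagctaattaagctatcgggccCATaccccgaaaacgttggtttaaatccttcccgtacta
mt-Tw: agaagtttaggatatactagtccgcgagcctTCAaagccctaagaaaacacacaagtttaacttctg
These sequences, and those that follow, are transcripts of GENCODE M21 on GRCm38, which is not the build the authors named.

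The ATP synthase gene mt-Atp8, which ends inside mt-Atp6, is shown with the 43 shared bases in capitals, and mt-Nd4l, a small complex I subunit, with the 294 bases in capitals that are identical in the annotated nuclear pseudogene Gm10222. They are shown because they were the protein-coding members with almost no counts.
mt-Atp8: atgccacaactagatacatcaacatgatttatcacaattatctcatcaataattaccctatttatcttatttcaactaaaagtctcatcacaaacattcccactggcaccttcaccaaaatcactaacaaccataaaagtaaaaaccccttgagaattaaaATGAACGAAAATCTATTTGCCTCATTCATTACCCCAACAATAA
mt-Nd4l: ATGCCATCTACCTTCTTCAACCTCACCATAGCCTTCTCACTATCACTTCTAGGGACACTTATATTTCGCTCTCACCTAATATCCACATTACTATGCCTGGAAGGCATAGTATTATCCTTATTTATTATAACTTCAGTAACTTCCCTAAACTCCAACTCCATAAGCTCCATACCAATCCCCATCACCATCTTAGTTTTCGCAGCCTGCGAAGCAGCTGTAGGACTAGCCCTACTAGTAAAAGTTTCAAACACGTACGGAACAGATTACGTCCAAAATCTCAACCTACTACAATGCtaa
mt-Nd4l had 0 counts in all 15 libraries, and mt-Atp8 had 0 to 6. A library's 3 counts, taken here as a floor, correspond to 0.0551 to 0.115 CPM (counts per 1000000 library counts). Lower levels rest on fewer than 3 counts. Gm10222 had 1 count in 1 library and 0 in the rest. How the counting treated reads that match more than 1 place or more than 1 gene is not given in the sources used here, so the 0 of mt-Nd4l is a value of the table and not a measurement that the RNA was absent.

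Of the 13 protein-coding members, 11 had an annotated nuclear copy at 90% identity or more over at least 100 bases, so their counts are uncertain to the extent that reads were shared. The copies numbered 17, of which 8 had counts here and 9 were not among the gene identifiers counted. Besides mt-Nd4l, 4 members matched a copy without a mismatch: mt-Atp6 with Gm10925 over 678 of 681 bases, mt-Co2 with Gm28661 over 681 of 684, mt-Co3 with Gm28437 over 783 of 784, and mt-Nd4 with Gm28439 over 876 of 1378. Those 4 members had between 6422 and 227072 counts in every library, and their 4 copies were among the 9 identifiers not counted. The copy with the most counts was Gm13340, 97.6% identical to mt-Co1 over 1545 bases, at 23 to 92 counts a library, beside 178353 to 375410 for mt-Co1. For mt-Nd5 the counted copy was Gm11407 (92.4% identity over 1055 bases), at 0 to 3 counts.

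Levels were compared between members as counts per kilobase of gene and per 1000000 library counts (length-scaled CPM). The cytochrome c oxidase mRNAs stood highest: mt-Co3 had a mean of 6407 over the 15 libraries, mt-Co1 4978 and mt-Co2 2446, in this order in all 15. Next came mt-Nd3 (1112) and mt-Nd1 (984), whose order depended on the cohort: mt-Nd1 was the higher in all 7 libraries of 8 days and mt-Nd3 in all 8 of 3 months. mt-Nd1 was above mt-Cytb (902) in 13 of 15. mt-Nd4 (443) was above mt-Atp6 (424) in all 7 libraries of 8 days and below it in all 8 of 3 months. mt-Atp6 was above mt-Nd2 (234) in all 15 and mt-Nd2 above mt-Nd5 (201) in 14. By raw counts mt-Co1 ranked between 2 and 9 among all genes of its library and mt-Co3 between 8 and 16.

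The 2 rRNAs, which form the mitochondrial ribosome, are usually the most abundant RNAs of the organelle. The protocols describe depletion of ribosomal RNA, while the molecule label names polyA RNA. The part of either in the rRNA levels was not tested. mt-Rnr2 had a mean of 53.3 and mt-Rnr1 of 5.34 length-scaled CPM, below all the protein-coding members above. mt-Nd6, the only protein-coding gene on the opposite strand, had a mean of 31.5. All 22 tRNAs together had 104 to 198 counts a library, and 14 of them never reached 10 counts. mt-Ti had a mean of 34.9 counts, mt-Tm of 23.7 and mt-Tw of 21.3, with 51 counts of mt-Ti in a 3-month mutant as the highest of any tRNA.

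**Figure D1:**
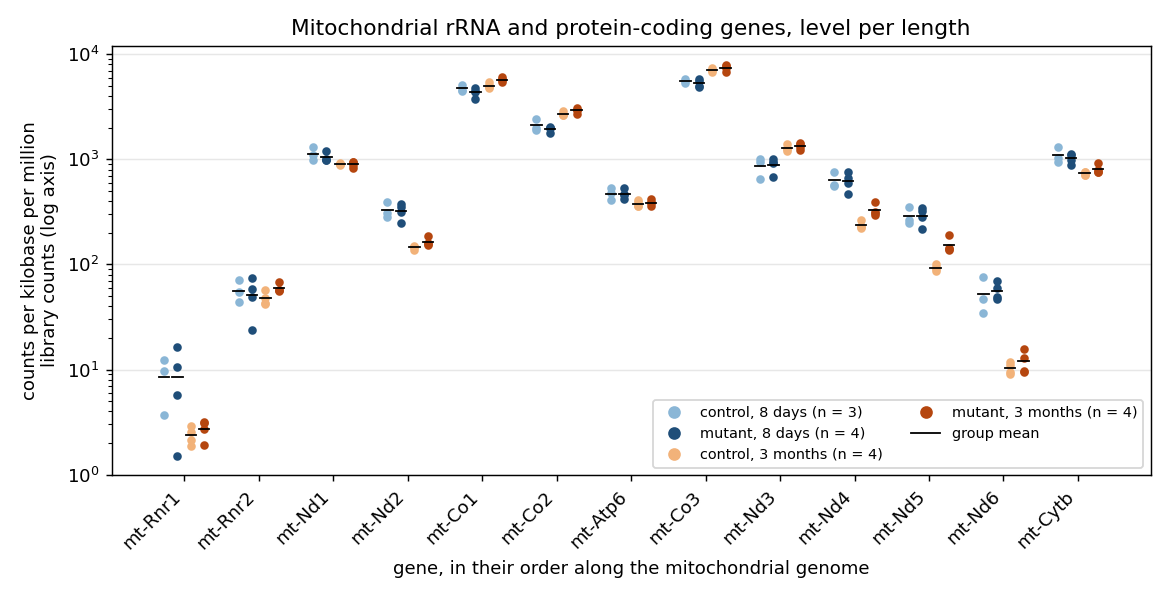
Counts per kilobase per 1000000 library counts (log axis) for the 2 rRNA genes and the 11 protein-coding genes with more than a few counts, in genome order; points are libraries and bars group means. mt-Co3 and mt-Co1 stand highest, and mt-Nd6, mt-Nd5, mt-Nd4 and mt-Nd2 are lower in every 3-month library than in every 8-day library.

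The levels were also set side by side between the 2 cohorts. Across the 13 members in that plot, 5 had every 8-day library above every 3-month library, 3 had the reverse, and 5 overlapped, beside 18.6% of all 17959 genes whose cohorts were apart (7.2% higher at 8 days and 11.4% higher at 3 months). No difference between the members and other genes was tested. The 5 higher at 8 days were all complex I subunits: mt-Nd6 was at 34.8 to 75.6 length-scaled CPM in the 7 libraries of 8 days and at 9.16 to 15.7 in the 8 of 3 months, a ratio of means of 4.91. mt-Nd5 was at 217 to 354 against 86.1 to 189 (ratio 2.36), and mt-Nd4 at 472 to 763 against 223 to 393 (ratio 2.22). mt-Nd2 was at 245 to 395 against 138 to 187, and mt-Nd1 had a ratio of 1.20.

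The 3 higher at 3 months were mt-Nd3 (653 to 1010 length-scaled CPM at 8 days and 1210 to 1435 at 3 months), mt-Co2 (1.40 times its 8-day mean) and mt-Co3 (1.34 times). The complex I genes therefore did not move as a block, since mt-Nd3 went the other way. mt-Co1, mt-Cytb, mt-Atp6, mt-Rnr1 and mt-Rnr2 overlapped between the cohorts. The time after tamoxifen and the cohort cannot be told apart, and the protocols name 2 RNA extraction methods without saying which sample had which, so these values are a description with no test. Of 23 summed lists of nuclear genes, 5 were also higher in every 3-month library: immune markers (624 to 1272 CPM at 8 days and 1398 to 3355 at 3 months), abundant nuclear noncoding RNAs (22094 to 24945 and 25305 to 30844), nuclear complex IV subunits (1672 to 2010 and 2070 to 2452), genes of mitochondrial DNA replication and transcription (253 to 285 and 288 to 318) and mitochondrial stress genes (638 to 768 and 800.3 to 1283). Jchain, the largest part of the immune sum, was at 360 to 993 and 1026 to 2858 CPM. Every other immune marker overlapped between the cohorts. Among the noncoding RNAs only Rn7sk was apart (8785 to 10249 and 11009 to 14579 CPM). The part of these lists in the differences between the cohorts was not tested.

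Ratios within a library do not depend on its scaling. Per 100 counts of mt-Co1, mt-Nd5 had 5.39 to 9.12 counts at 8 days and 1.98 to 3.72 at 3 months. mt-Nd4 had 8.86 to 15.1 and 3.83 to 5.83, and mt-Cytb 13.7 to 19.3 and 9.64 to 11.6. mt-Nd6 had 0.262 to 0.616 and 0.0561 to 0.0874. Of the 11 ratios to mt-Co1, these 4 and those of mt-Nd1, mt-Nd2 and mt-Atp6 were higher in every 8-day library, that of mt-Co2 was higher in every 3-month library, and those of mt-Nd3, mt-Co3 and mt-Rnr2 overlapped. Taken per count of mt-Co1 in the same way, 16.8% of all other genes had cohorts apart in either direction. mt-Rnr1 per 100 counts of mt-Rnr2 was 3.88 to 13.4 at 8 days and 2.07 to 3.35 at 3 months, so the smaller rRNA also had a lower share of the rRNA counts in the later cohort.

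**Figure D2:**
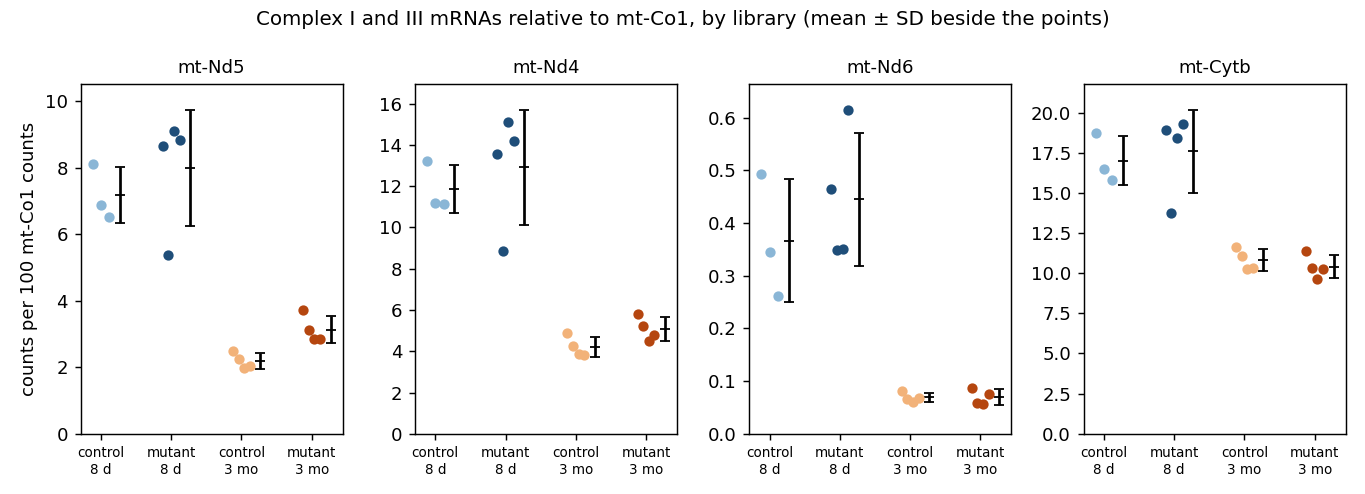
Counts of mt-Nd5, mt-Nd4, mt-Nd6 and mt-Cytb per 100 counts of mt-Co1, by library and group, with the mean ± SD (n = 3, 4, 4 and 4) beside the points. The 8-day libraries lie above all 3-month libraries for the 4 genes, and at 3 months mt-Nd5 separates the mutants (2.84 to 3.72) from the controls (1.98 to 2.48).

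The label of the mutants was checked on Rfx6 itself, which in whole ileum comes from few cells. Its counts were 50, 50 and 84 in the 8-day controls, while the libraries labelled mutant had 80, 105, 63 and 44. At 3 months they were 51, 52, 38 and 43 in controls, while the libraries labelled mutant had 106, 72, 89 and 65. Counts over the whole gene were thus not lower in the libraries labelled mutant, and which exons were deleted is not given in the sources used here. At 3 months the gene was higher, by a log2 value of 0.72 (SE 0.17, edgeR adjusted p = 0.0347), a call lost with Rfx6f/f controls only (adjusted p = 0.239) and without controls 1, 2, 3 or 4 or mutants 1 or 3 (adjusted p of 0.0562 to 0.0972).

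At 8 days, the libraries labelled mutant were compared with controls to ask whether mitochondrial RNAs differed soon after tamoxifen. The protein-coding members took 1.95, 1.75 and 1.64% of counts in controls, and 1.78, 1.70, 1.70 and 1.53% in those labelled mutant. The means, 1.78 ± 0.156 (SD, n = 3) and 1.68 ± 0.101% (SD, n = 4), differed by -0.106 percentage points and the groups overlapped. Of the 37 members 18 had enough counts to be tested: 11 protein-coding, 2 rRNA and 5 tRNA genes.

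None was called by the edgeR quasi-likelihood test at an adjusted p under 0.05 (0 of 18, against 0.0915% of all 17493 genes tested). The count was also 0 at an unadjusted p under 0.05 (8.8% of all genes), 0 with DESeq2 (1.02% of all genes) and 0 with limma-voom (0.0915%). Log2 fold changes of the 11 protein-coding genes ran from -0.12 to 0.12 with a median of -0.023, beside -0.0020 over all genes tested. The lowest adjusted p of any member was 0.779, and for no member were the groups separate, beside 7.63% of all genes.

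Among the complex I genes at 8 days, mt-Nd5 had 633, 495 and 450 CPM (here after TMM scaling within the cohort) in controls, against 599, 384, 638 and 512 in those labelled mutant. The highest and the lowest of these 7 values were both in mutants, and the log2 fold change was 0.019 (SE 0.18). mt-Co1 had 7800, 7193 and 6903 CPM in controls and 6911, 7127, 6990 and 5795 in mutants, a log2 fold change of -0.12 (SE 0.098, edgeR adjusted p = 0.828). The groups overlapped, and mutant replicate 4 was the lowest.

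The rRNAs varied within each group at 8 days. mt-Rnr1 had 11.5, 9.40 and 3.53 CPM in controls, against 10.4, 1.41, 5.44 and 15.6 in those labelled mutant, and its log2 fold change of 0.0098 had an SE of 0.68. mt-Rnr2 had 109, 87.8 and 69.6 CPM against 94.1, 36.2, 77.2 and 117 (log2 fold change -0.13, SE 0.33). Mutant replicate 2 was the lowest for both, and it also had the lowest ratios of mt-Nd5, mt-Nd4, mt-Nd2 and mt-Cytb to mt-Co1 among the 7. mt-Ti, the tRNA with the most counts, had a log2 fold change of -0.47 (SE 0.32, edgeR adjusted p = 0.779).

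At 3 months, mt-Nd5, a membrane subunit of the proton-pumping arm of complex I, was the only member called, and it was higher in the libraries labelled mutant. It had 190, 162, 159 and 170 CPM in controls and 364, 263, 248 and 242 in mutants. Every mutant lay above every control, and mutant replicate 1 was the highest. The log2 fold change was 0.71 (SE 0.13, edgeR adjusted p = 0.0182, higher in 4 of 4), a fold of 1.64.

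The call, 1 of 18 tested members, stands beside 9.28% of all 17085 genes tested at 3 months and 4.96% called higher. It was lost without control replicate 2 (adjusted p = 0.0592) or control replicate 3 (0.0598), the 2 Rfx6f/+ controls, and with both left out, where the log2 fold change was 0.63 (SE 0.18, adjusted p = 0.186). Without mutant replicate 1 it was 0.56 (SE 0.074, edgeR adjusted p = 0.0139). The ratio of mt-Nd5 to mt-Co1 also kept the groups apart, at 1.98 to 2.48 per 100 counts in controls and 2.84 to 3.72 in mutants.

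Next to mt-Nd5 lies mt-Nd6 on the opposite strand, and their annotated ends share 14 bases, in capitals in the last 60 bases of mt-Nd5, shown because a read there can belong to either gene.
mt-Nd5, last 60 bases: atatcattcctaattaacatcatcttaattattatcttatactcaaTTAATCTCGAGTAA
Whether strand was used in counting is not given in the sources used here. Antisense reads therefore cannot be told apart, in that overlap or elsewhere along either gene. mt-Nd6 had 6.22, 4.76, 4.81 and 5.66 CPM in controls and 8.57, 5.01, 4.87 and 6.47 in mutants, a log2 fold change of 0.22 (SE 0.19, edgeR adjusted p = 0.491). The groups overlapped.

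mt-Nd4, the complex I subunit that precedes mt-Nd5 along the genome, missed the threshold. It had 373, 305, 311 and 320 CPM in controls and 571, 440, 390 and 408 in mutants, again with every mutant above every control. Its log2 fold change was 0.47 (SE 0.13, edgeR adjusted p = 0.0510). It passed in 7 of 19 other settings: RLE scaling (where 9.21% of all genes were called), total counts as library size (7.49%), scaling without the 20 most counted genes (9.4%), a filter of 10 counts in every library (10.1%), DESeq2 (17.8%), limma-voom (9.49%) and a robust fit (9.41%). DESeq2 gave the lowest adjusted p, 0.0048. With Rfx6f/f controls only, where 0.205% of genes were called, it was 0.38 (SE 0.17, edgeR adjusted p = 0.308). Relative to mt-Co1 its groups overlapped (3.83 to 4.87 and 4.49 to 5.83 per 100 counts).

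mt-Co1, the catalytic subunit of complex IV, had every mutant above every control after TMM scaling, at 7657, 7143, 8035 and 8353 CPM in controls and 9803, 8458, 8687 and 8525 in mutants. The log2 fold change, with TMM scaling, was 0.19 (SE 0.11, edgeR adjusted p = 0.281). Without the TMM factors the groups overlapped, with the highest control at 8413 and the lowest mutant at 8349 counts per 1000000. After TMM scaling mt-Nd5, mt-Nd4 and mt-Co1 were the 3 of 18 members whose groups were separate, all with higher mutants, beside 19.2% of all genes in either direction and 9.7% with higher mutants.

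The remaining protein-coding members were not called. mt-Nd2 had a log2 fold change of 0.18 (SE 0.091, edgeR adjusted p = 0.215), and its groups were separate only without the TMM factors (142.9 to 157.2 in controls and 159.4 to 194.2 counts per 1000000 in mutants). mt-Cytb, the subunit of complex III, was at 0.14, mt-Co2 at 0.12, mt-Co3 at 0.080, mt-Nd3 at 0.065, mt-Atp6 at 0.027 and mt-Nd1 at -0.015. Thus 10 of the 11 had positive values, with a median of 0.14 beside 0.0077 over all genes tested. Of the 11 ratios to mt-Co1, 3 were lower in every mutant than in every control, beside 20.6% of all genes taken per count of mt-Co1. Per 100 counts of mt-Co1, mt-Nd1 had 10.2 to 11.8 counts in controls and 9.40 to 9.95 in mutants, mt-Co3 69.2 to 73.7 and 64.3 to 68.1, and mt-Atp6 3.10 to 3.70 and 2.89 to 3.04. Only the ratio of mt-Nd5 was higher without overlap, beside 3.05% of all genes.

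**Figure D3:**
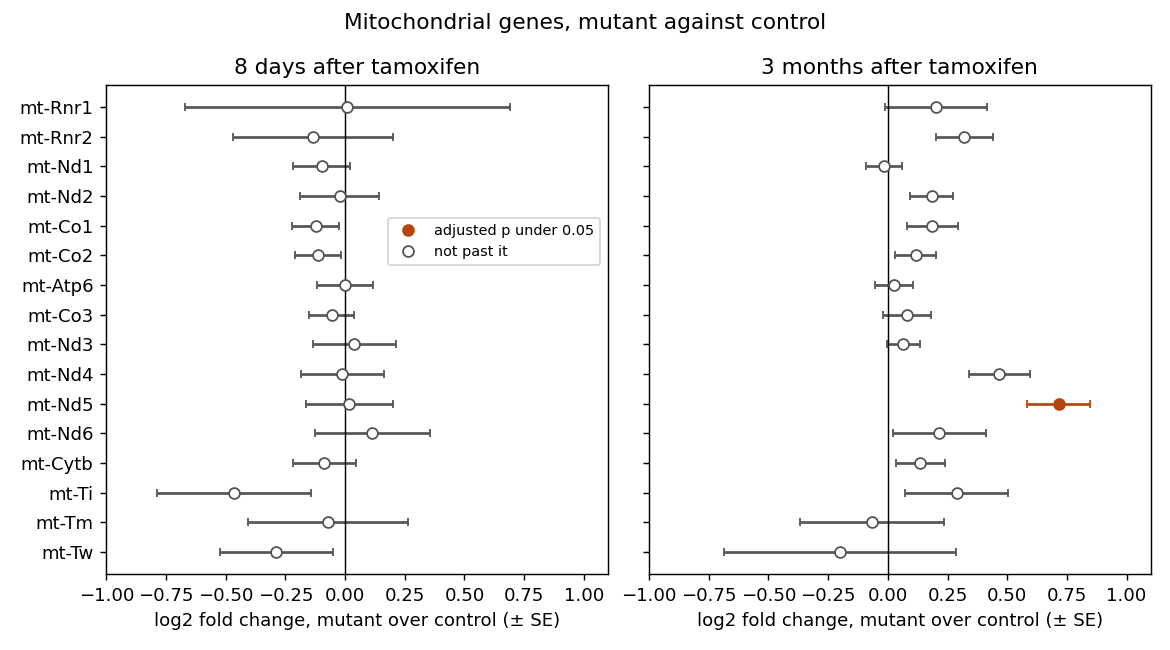
Log2 fold change, mutant over control, with its SE (edgeR), at 8 days (3 controls, 4 mutants) and 3 months (4 and 4) for the 13 rRNA and protein-coding genes tested and the 3 tRNAs with the most counts. mt-Nd5 at 3 months (0.71, SE 0.13) is the filled point past the threshold, and mt-Nd4 (0.47, SE 0.13) comes next.

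Among the RNA genes at 3 months, mt-Rnr2 had 77.4, 66.9, 66.9 and 89.5 CPM in controls and 113, 91.6, 85.0 and 86.4 in mutants. Its groups overlapped through control replicate 4, and the log2 fold change of 0.32 (SE 0.12) had an edgeR adjusted p of 0.117. mt-Rnr1 was at 0.20 (SE 0.21). The tRNA mt-Ti was at 0.29 (SE 0.22), mt-Tm at -0.065 (SE 0.30) and mt-Tw at -0.20 (SE 0.49), with none called among the 5 tRNAs tested. The other 17 tRNAs were too low for the test.

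Summed over the 13 protein-coding genes, the share of library counts at 3 months was 1.80, 1.73, 1.83 and 1.93% in controls and 2.135, 1.876, 2.047 and 2.002% in mutants. The means were 1.82 ± 0.083 (SD, n = 4) and 2.01 ± 0.108% (SD, n = 4), a difference of 0.191 percentage points. The groups overlapped, with control replicate 4 above mutant replicate 2. In bulk tissue, less RNA per cell and fewer cells of a type cannot be told apart.

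**Figure D4:**
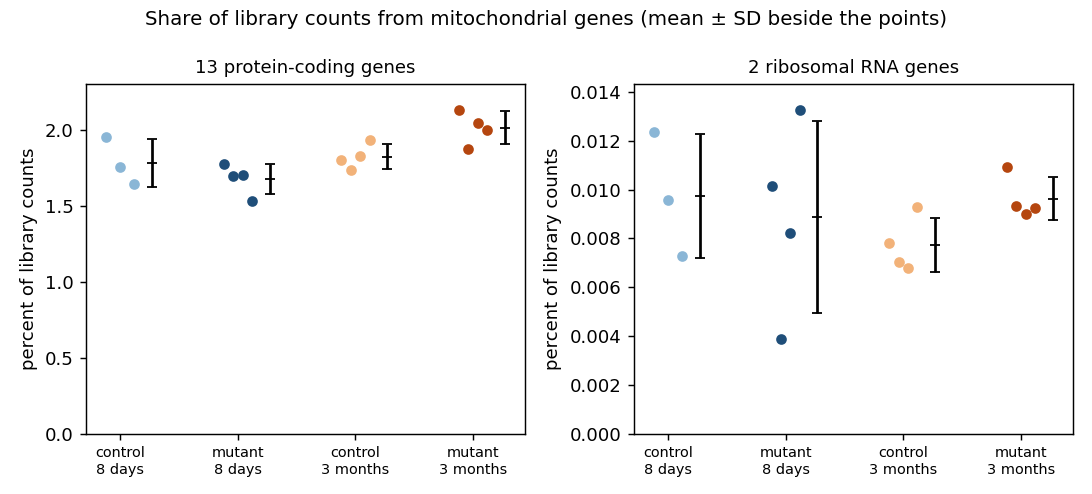
Percent of library counts from the 13 protein-coding genes (left) and the 2 rRNA genes (right), by library and group, with the mean ± SD beside the points. The protein-coding share is 1.53 to 1.95% at 8 days and 1.73 to 2.13% at 3 months, and the rRNA share never exceeds 0.0133%.

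The difference between the time points was tested as an interaction over all 15 libraries. No member was called (0 of 19 tested, against 0.785% of 17959 genes), and DESeq2, which called 6.02% of genes, also called 0 members. mt-Nd5 was the 1 member with an unadjusted p under 0.05 in edgeR (16.6% of all genes), with a difference in log2 fold change of 0.68 (SE 0.24, adjusted p = 0.164). mt-Nd4 followed at 0.46 (SE 0.23, edgeR adjusted p = 0.340). An effect of mt-Nd5 that differs between 8 days and 3 months was therefore not shown.

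The nuclear partners of these genes were taken from lists of the same pathways. At 8 days no gene of any of these lists was called, beside 0.0915% of all genes. The counts at 3 months stand beside 9.28% of all genes called, 4.96% called higher, 8751 of 17085 genes with positive values and a median of 0.0077. Of 80 nuclear oxidative phosphorylation subunits tested, 3 rose and 0 fell, which is no larger a share than among all genes, and the median log2 fold change was -0.031. They were Ndufa6, an accessory complex I subunit (0.25, SE 0.065, edgeR adjusted p = 0.0474), and the complex IV isoforms Cox7a1, typical of muscle (0.52, adjusted p = 0.0451), and Cox6b2 (1.01, adjusted p = 0.0187). Of the 36 nuclear complex I subunits 28 had negative values, and their summed level without TMM factors overlapped between the groups, at 2582 to 2794 CPM in controls and 2369, 2408, 2754 and 2925 in mutants.

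Of 76 mitochondrial ribosomal proteins tested, 73 had negative values at 3 months, with a median of -0.15, and 1 was called, Mrps34 (-0.33, SE 0.088, edgeR adjusted p = 0.0480). The summed level of the 81 listed genes, without TMM factors, overlapped between the groups, at 2230 to 2434 CPM in controls and 1845, 2051, 2235 and 2309 in mutants. In the list for processing and stability of mitochondrial RNA, 17 of 19 were negative and Slirp, an RNA-binding partner that stabilises mitochondrial mRNAs, fell. It had 29.9, 29.1, 29.3 and 28.1 CPM in controls and 21.5, 23.0, 24.1 and 25.2 in mutants, without overlap (log2 fold change -0.31, SE 0.064, edgeR adjusted p = 0.0247). None of 16 genes of mitochondrial DNA replication and transcription passed edgeR's threshold, and none of 17 mitochondrial aminoacyl-tRNA synthetases. Tfam, which packages the genome and starts its transcription, was at -0.076 (adjusted p = 0.396), and Polrmt, the mitochondrial RNA polymerase, at 0.078 (edgeR adjusted p = 0.460).

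Among 7 regulators of mitochondrial biogenesis, Ppargc1a, a transcriptional coactivator that induces mitochondrial genes, rose at 3 months. It had 17.3, 15.3, 18.2 and 21.7 CPM in controls and 58.6, 32.2, 28.3 and 35.3 in mutants, with no overlap and mutant replicate 1 the highest, as for mt-Nd5. The log2 fold change was 1.09 (SE 0.22, edgeR adjusted p = 0.0236), and the interaction with time was 0.94 (SE 0.30, adjusted p = 0.120). That interaction was called in 1 of 25 other settings. Of 15 mitochondrial stress genes tested 2 were called, beside 9.28% of all genes. Trib3, a pseudokinase induced by stress, rose (1.135, edgeR adjusted p = 0.0274), and Hspe1, the small mitochondrial chaperonin, fell (-0.43, adjusted p = 0.0411). Trib3 was already at 1.20 at 8 days (SE 0.22, edgeR adjusted p = 0.179). All of these nuclear calls at 3 months were lost with Rfx6f/f controls only, at adjusted p of 0.169 to 0.282, and without control 1, 2 or 3 in turn. Those were the only losses over 19 settings for Ppargc1a, Trib3 and Cox6b2, at 4 each, while Slirp was lost in 6, Hspe1 in 9, Cox7a1 and Mrps34 in 10 and Ndufa6 in 11. Total counts as library size ended the last 5 of these calls, no filter those of Ndufa6 and Mrps34, the joint fit those of Ndufa6 and Slirp, and limma-voom that of Cox7a1, and the other losses came with a library left out.

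**Figure D5:**
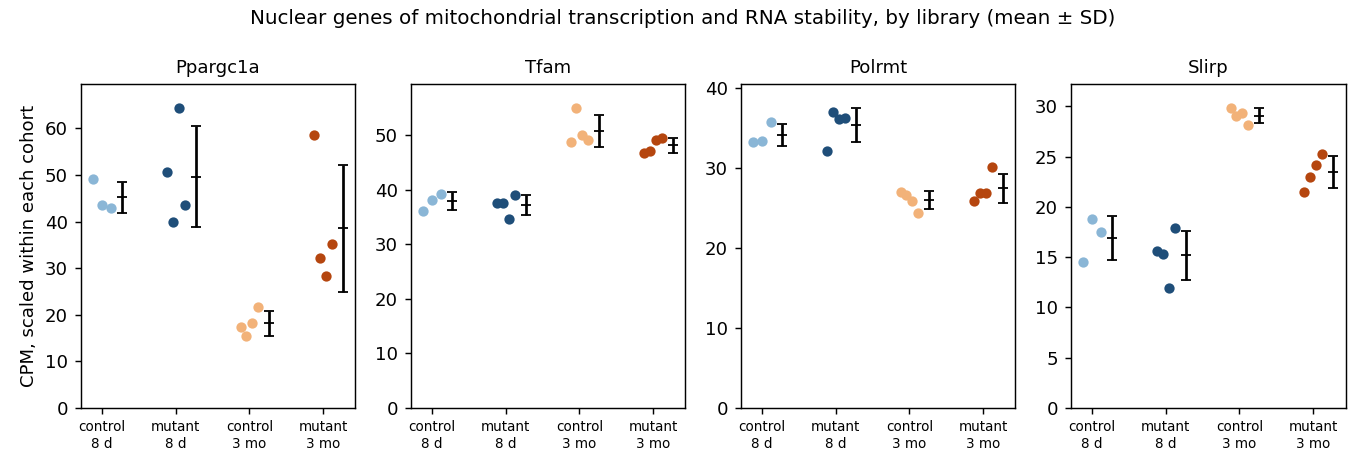
CPM, scaled within each cohort, of Ppargc1a, Tfam, Polrmt and Slirp by library and group, with the mean ± SD beside the points. At 3 months Ppargc1a is higher in the 4 mutants (28.3 to 58.6) than in the controls (15.3 to 21.7) and Slirp lower (21.5 to 25.2 against 28.1 to 29.9), while Tfam and Polrmt overlap.

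Marker lists of other cells were measured beside these results. At 8 days, where no member and no marker was called, the summed levels (CPM without TMM factors) were apart for epithelial markers (11748 to 12432 CPM in controls and 10268 to 11025 in mutants) and for skeletal or cardiac muscle markers (72.3 to 122 and 192 to 424, mostly Acta1). The lists follow at 3 months. All 7 epithelial markers had negative log2 fold changes (0 called), with summed levels of 10379 to 11713 CPM in controls and 9181 to 10207 in mutants. After TMM scaling only Krt8 of them had separate groups (4397 to 5225 and 3973 to 4241 CPM), and Cdh1 was at -0.0053 on the log2 scale. All 6 smooth muscle markers were positive (0 called), at 1530 to 1892 and 1632 to 3164 CPM summed. Skeletal or cardiac muscle markers summed to 75.5 to 107 and 103 to 672 CPM, nearly all of it Acta1 (63.8 to 96.8 and 87.3 to 663 CPM, edgeR adjusted p = 0.0514). Of the others, Ckm was at 0.29 and Tnnt2 at 0.41 on the log2 scale, neither called, and Myh6 and Tnnt3 were too low to be tested. Fibroblast markers had 4 of 5 positive and 1 called, Pdgfra (0.64, edgeR adjusted p = 0.0217), at 883 to 952 and 939 to 1591 CPM summed. Proliferation markers were negative in 5 of 5 with 1 called, Top2a (-0.34, edgeR adjusted p = 0.0377), at 837 to 1010 and 687 to 886 CPM summed. All 5 red blood cell markers fell and all 5 were called, beside 9.28% of all genes (27.9 to 64.2 and 16.6 to 20.7 CPM summed). Their edgeR adjusted p ran from 0.0270 to 0.0494. Immune markers summed to 2442 to 3355 and 1398 to 1962 CPM, with Jchain the largest part (1999 to 2858 and 1026 to 1622 CPM). Of these 8, Csf1r was called higher (0.60, edgeR adjusted p = 0.0212) and Jchain lower (-0.85, edgeR adjusted p = 0.0182). The other immune markers were negative and not called. All 5 enteric neuron and glia markers were positive (0 called), at 16.4 to 19.1 and 18.8 to 27.1 CPM summed. The 3 adipocyte markers tested, of 5, were negative (0 called), at 0.422 to 36.2 and 3.96 to 26.2 CPM summed. All 5 pancreatic acinar markers, foreign to ileum, were negative (0 called), at 30.8 to 923 CPM summed in controls, highest in control replicate 4, and 14.6 to 294 in mutants. Of 6 ileal absorptive markers 4 were positive and 1 was called: Fabp6, a bile acid carrier, fell by 1.44 on the log2 scale (edgeR adjusted p = 0.00873), while the list summed to 7630 to 9565 CPM in controls and 6566 to 9360 in mutants, with overlap. The part of these cell types in the values of mt-Nd5 and the other members was not tested.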

How the data were processed

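RNA-seq of 15 mouse ileum libraries was used. The deposited values are raw counts per gene, 1 table per cohort. Per the submitters' processing notes, the tools included bcl2fastq 2.17.1.14, Bowtie 1.0.0, TopHat2 2.0.10, Bowtie2 2.1.0 and HTSeq 0.6.1, with build mm9; the roles of the aligners, the annotation release and the strand setting are not given in the sources used here. The labels' protocols describe ribosomal RNA depletion of total RNA, while the molecule label names polyA RNA. Symbols came from GENCODE M21 (GRCm38) for 32897 identifiers (87.45%); as the build differs, no coordinates are printed.

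Separate fits for the 2 cohorts used edgeR 4.0.16 and its quasi-likelihood test (R 4.3.3, TMM, filterByExpr with a minimum count of 10, Benjamini-Hochberg adjusted p under 0.05 over all genes tested, two-sided); the interaction used all 15 libraries. Errors of fold changes are SE. CPM are counts per 1000000 library counts. The values of single genes by library beside a fold change are TMM-scaled within the cohort. Floors, length-scaled levels, summed lists, Acta1, Jchain and Rn7sk are not. Nuclear copies were found with blastn 2.17.0. The tests were checked on simulated data. Replicates were numbered in deposit order, and nothing in the labels pairs mutants with controls.

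Named with full values were the protein-coding and rRNA members, the 3 tRNAs with the highest mean count, Tfam, Polrmt, Ppargc1a and Rfx6, and called genes of the pathway lists. Members and lists were chosen with earlier results of these data known. Alternatives were DESeq2 1.42.0, limma-voom (limma 3.58.1), other scalings and filters, a robust fit, a joint fit, a fit with the Rfx6f/f controls alone, and the omission of every library in turn. Figures used matplotlib 3.10.9.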

Additional observations from a re-analysis of the deposited data

Results flagged for a closer look

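Among 90 checks of a library that stands apart from the others of its group (groups of 4, by the gap to the nearest value over the range), 9 were met. Chance gives about 1 in 20, or 4.5 of 90, and the checks are not independent, since genes of 1 library share its scaling.

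At 3 months, mutant replicate 1 was the highest for mt-Co1 (9803 CPM, the others 8458 to 8687), mt-Nd5 (364 CPM, the others 242 to 263), mt-Cytb (1116 CPM, the others 837 to 875) and Trib3 (7.48 CPM, the others 3.56 to 4.13). Without it the log2 fold change of mt-Nd5 was 0.56 with an edgeR adjusted p of 0.0139. Mutant replicate 4 had 103 CPM of Ndufa6, the others 96.7 to 96.9.

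At 8 days, mutant replicate 4 had the lowest mt-Co1 (5795 CPM, the others 6911 to 7127) and mutant replicate 1 the lowest Polrmt (32.2 CPM, the others 36.2 to 37.0). Mutant replicate 2 had 5.39 counts of mt-Nd5 per 100 of mt-Co1, the others 8.67 to 9.12, and 13.7 of mt-Cytb, the others 18.4 to 19.3.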

How the results depend on the processing

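No mitochondrial member was called at 8 days or in the interaction under any alternative run. At 3 months the 1 call became 2, with mt-Nd4 joining mt-Nd5, under RLE size factors, total counts as library size, scaling without the 20 most counted genes, 10 counts in every library, DESeq2, limma-voom and the robust fit. It became 0 with Rfx6f/f controls only, and ranged from 0 to 1 with each library left out. Over its settings mt-Nd5 kept log2 fold changes of 0.56 to 0.78, with adjusted p from 1.5e-05 with DESeq2 to 0.186 with Rfx6f/f controls only, and it was called in 16 of 19. Scaling without the mitochondrial genes left its log2 fold change at 0.72 and the call in place.

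Genes called over the whole table depended more on the setting. At 8 days the 16 became 27 with no filter, 178 with DESeq2, 25 in the joint fit, 8 without control replicate 1 and 200 without mutant replicate 1. At 3 months the 1586 became 2983 with DESeq2 and 36 with Rfx6f/f controls only, and 391 (without control replicate 3) to 1521 (without control replicate 4) when a library was left out. For the interaction the 141 became 72 with total counts, 223 with no filter, 248 with 10 counts in every library, 1017 with DESeq2, 41 with limma-voom, 5 with Rfx6f/f controls only, and 10 (without control replicate 3 of 8 days) to 749 (without mutant replicate 1 of 8 days).

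Uncalled log2 fold changes near 0 changed sign. At 8 days mt-Rnr1 was -0.0056 with total counts and -0.30 with limma-voom, and mt-Atp6 was 0.0037 without the 20 most counted genes, 0.00077 with 10 counts in every library and 0.0029 in the joint fit. With Rfx6f/f controls only, mt-Rnr1 was -0.013 and mt-Atp6 -0.050 at 3 months, and in the interaction mt-Rnr1 was -0.020, mt-Atp6 -0.045, mt-Nd3 -0.00099 and mt-Nd6 -0.042; mt-Nd6 was -0.033 there with limma-voom. With 1 library left out at 8 days, the ranges were -0.50 to 0.37 for mt-Rnr1, -0.36 to 0.11 for mt-Rnr2, -0.12 to 0.11 for mt-Nd2, -0.086 to 0.074 for mt-Atp6, -0.13 to 0.18 for mt-Nd3, -0.13 to 0.13 for mt-Nd4, -0.082 to 0.17 for mt-Nd5, -0.11 to 0.45 for mt-Nd6, -0.17 to 0.040 for mt-Cytb, -0.43 to 0.057 for mt-Tm, -0.060 to 0.0055 for Tfam and -0.017 to 0.23 for Ppargc1a. At 3 months they were -0.064 to 0.020 for mt-Nd1, -0.038 to 0.072 for mt-Atp6, -0.54 to 0.060 for mt-Tw and -0.24 to 0.12 for mt-Tm. In the interaction they were -0.18 to 0.68 for mt-Rnr1, -0.021 to 0.16 for mt-Nd1, -0.059 to 0.093 for mt-Atp6, -0.13 to 0.17 for mt-Nd3 and -0.24 to 0.31 for mt-Nd6. The cause of these shifts was not tested.

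No paired analysis was possible because the replicate numbers only follow deposit order and the labels link no mutant to a control. At these depths 17 tRNAs in each cohort were too low for the test, and whether deeper libraries would change that was not tested. Extraction method and strand handling could not be modelled.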

Other observations

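Lars2, the nuclear gene of the mitochondrial leucyl-tRNA synthetase, varied between the 8-day libraries beside mt-Rnr1; this gene was picked because of its values. Its counts were 5217, 10449 and 1400 among controls, against 5584, 1121, 1144 and 12789 in those labelled mutant, with log2 fold change -0.10 (SE 1.04). mt-Rnr1 had 358, 347 and 192 counts and 461, 72, 218 and 481 in the same order. Mutant replicate 4 was the highest for both, and mutant replicate 2 the lowest for both. At 3 months Lars2 had 272 to 629 counts and mt-Rnr1 53 to 93, both below most 8-day libraries. What these 2 genes share in these libraries was not tested.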
